A study of Homo sapiens with 12 samples.

Results

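The genes described here are 35 tRNA ligases (aminoacyl-tRNA synthetases), of which 19 are cytosolic enzymes and 16 are mitochondrial enzymes. Membership was set by gene name and by no threshold on the counts, though the choice of this family was made with earlier results of these data known: all rows of the count table whose Ensembl identifier maps to one of the 35 symbols were taken, and the class was read from the name. Names ending in 1, FARSA and FARSB were counted as cytosolic, and names ending in 2 as mitochondrial. All 35 were found among 39266 genes, and all 35 passed the filter on low counts, which left 20820 genes for testing.

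The data are mRNA sequencing libraries, 12 in all, from PC9-OR, a line derived from the lung adenocarcinoma line PC9 (a non-small cell lung cancer) and resistant to osimertinib by its name. The 4 groups of 3 libraries were Control, OSI (osimertinib, an inhibitor of the receptor tyrosine kinase EGFR), DAC (dauricine, a plant alkaloid) and DAC+OSI (both compounds). All groups are the same resistant line. The labels give no dose, no exposure time and no vehicle for Control, and do not say whether the libraries of a group came from separate cultures.

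A tRNA ligase attaches an amino acid to its matching tRNA, and the ribosome uses these charged tRNAs to build protein. The cytosol and the mitochondrion each need a full supply, and most ligases are encoded by one gene per compartment, whereas GARS1 and KARS1 each make the enzyme of both compartments and EPRS1 joins the enzymes for glutamate and proline in one chain. The transcription factor ATF4, which acts in the integrated stress response to amino acid shortage and endoplasmic reticulum stress, is known to switch on many cytosolic ligase genes through short composite elements of the TGATGCAA kind.

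The promoter windows of the ligases were searched for these letters, because the cytosolic genes described below moved together. RefSeq start sites on GRCh38.p14 were matched for 30 of the 35 symbols, and AARS2, VARS2, LARS1, VARS1 and YARS1 had no entry. Windows held 250 bases before to 50 after a start, and a gene with more than one start counted as a match if any window matched. TGATGNAA was read on both strands, N standing for any base, and no other motif was searched. It was present in 7 of 16 cytosolic genes (43.8%), namely AARS1, CARS1, GARS1, IARS1, MARS1, NARS1 and TARS1, and in 1 of 14 mitochondrial genes (7.14%), YARS2. The share was 2.94% of the 13142 tested genes that have such a window, and 4.46% of the 27305 genes in the promoter table. The exact TGATGCAA was found in 6 members. Stretches of 60 bases are shown for 4 of the cytosolic genes and for YARS2, so that the position and the orientation of the match can be compared. They run 5′ to 3′ along the strand of the gene, with the match in capitals; in AARS1, GARS1 and TARS1 it lies on the opposite strand, so the capitals are the reverse complement of the motif as searched.
AARS1: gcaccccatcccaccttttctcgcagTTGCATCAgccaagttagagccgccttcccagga
GARS1: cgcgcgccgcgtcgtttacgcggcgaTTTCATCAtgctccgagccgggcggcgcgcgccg
TARS1: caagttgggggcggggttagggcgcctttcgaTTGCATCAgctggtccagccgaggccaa
NARS1: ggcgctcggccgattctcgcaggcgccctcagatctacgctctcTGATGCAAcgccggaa
YARS2: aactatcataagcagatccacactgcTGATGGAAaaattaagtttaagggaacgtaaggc
The AARS1 stretch is chr16:70289660-70289719 on the minus strand, and its match starts at base -187 relative to the start site. The GARS1 stretch is chr7:30594819-30594878 on the plus strand, with the match at -33. The TARS1 stretch is chr5:33440935-33440994 on the plus strand, with the match at 3, just inside the transcript. The NARS1 stretch is chr18:57621807-57621866 on the minus strand, with the match at 15. The YARS2 stretch is chr12:32756061-32756120 on the minus strand, with the match at -197. These matches describe letters only and were not tested as binding sites. WARS1, SARS1 and EPRS1, which are also known targets of ATF4, had a window without these letters.

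Total counts ran from 24.9 to 66.9 mega-counts (M) per library, and the ligases took between 0.3078% (DAC+OSI 2) and 0.486% (Control 1) of them. Levels below are CPM, counts per M counts of the library after scaling by the trimmed mean of M values. They are shares of a library, so a lower share of one gene and a rise of other transcripts cannot be told apart. Amounts per cell were not measured. The epithelial markers EPCAM, KRT8, KRT18, KRT19, CDH1 and EGFR summed to between 10520 and 17880 CPM. The fibroblast list (COL1A1, COL1A2, DCN, LUM) summed to between 5.74 and 20.4 CPM in the other groups and to 26.2, 91.9 and 39.8 CPM in DAC+OSI, nearly all of it COL1A1 and COL1A2, with DCN at 0 in 11 libraries and at 0.0973 CPM in DAC+OSI 2. The leukocyte list (PTPRC, CD3E, CD68) summed to 2.6 to 22.6 CPM and was lowest in OSI. The endothelial list (PECAM1, VWF, CDH5) summed to 4.95 to 28.4 CPM and was lowest in Control. Transcripts of the mitochondrial genome took 13.5 to 15.6% of counts in Control, 14.3 to 18.6% in OSI, 10.4 to 12.5% in DAC and 11.2 to 13.2% in DAC+OSI. The highest share was that of OSI 3, a library that several calls below need, and every library with DAC lay below every library without it. The part of these genes and of this share in the ligase results was not tested.

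Control 2 and DAC+OSI 2 stood apart from the other libraries of their groups along gene GC content, and this touched the ligases directly. Across the 19 cytosolic ligases, the log2 deviation of Control 2 from Control 1 and 3 rose with GC content (Spearman rho 0.89), as did that of DAC+OSI 2 (rho 0.86). Across the 16 mitochondrial ligases these values were 0.5 and 0.23. In Control 2 the deviations ran from -0.93 (RARS1) to 0.49 (VARS1), and in DAC+OSI 2 from -1.46 (RARS2) to 0.95 (QARS1). All 7 comparisons share one estimate of spread, so ligase counts from a fit of the other 10 libraries stand beside the counts from all 12. Leaving out deviating libraries by itself lowers the spread, and the higher counts of that fit are no independent support. For the same reason calls that end when a library is left out are named with it.

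The 2 classes differed in level. Per kilobase of exon, the median cytosolic ligase was at 24.3 to 42.2 CPM per kb over the 12 libraries and the median mitochondrial ligase at 5.22 to 6.24 CPM per kb. SARS1 had the highest mean over all libraries, 93.4 CPM per kb, followed by AARS1 (81.4), QARS1 (69.4) and GARS1 (56.5). The lowest cytosolic gene was CARS1, at 5.33 CPM per kb. Among the mitochondrial genes IARS2 was highest, at 26.1 CPM per kb, and VARS2 lowest, at 0.0818 CPM per kb. VARS2 stayed between 0.341 and 1.34 CPM in every library, and 22% of its exon bases are shared with GTF2H4.

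Summed over the class, the cytosolic ligases were at 4319, 4421 and 4157 CPM in Control, 2956, 2871 and 2715 CPM in OSI, 3600, 3750.0 and 3638 CPM in DAC, and 3338, 3357 and 3412 CPM in DAC+OSI. Every treated library lay below every Control library, OSI was lowest, and DAC+OSI lay between OSI and DAC with no overlap. The mitochondrial ligases were at 475.5 ± 2.6 CPM in Control, 496.5 ± 23.2 in OSI, 467.8 ± 14.1 in DAC and 429.6 ± 50.8 in DAC+OSI (SD, n = 3), and of these groups Control and DAC+OSI alone did not overlap. The ratio of cytosolic to mitochondrial CPM was 8.7 to 9.35 in Control, 5.62 to 5.81 in OSI, 7.56 to 8.0 in DAC, and 7.1, 9.01 and 7.65 in the DAC+OSI libraries, of which DAC+OSI 2 was the high one.

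**Figure D1:**
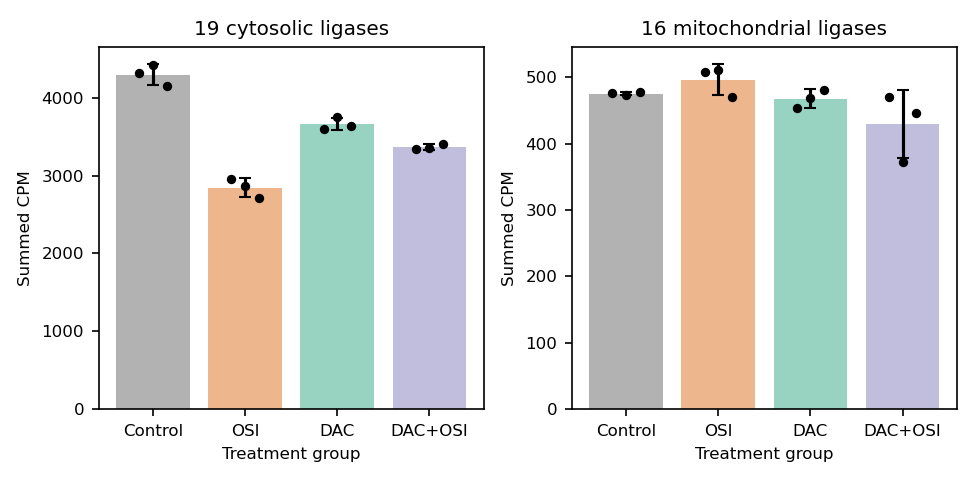
Summed CPM of the 19 cytosolic and the 16 mitochondrial ligases by treatment group. Bars are means, error bars the SD over 3 libraries and points single libraries; the cytosolic sum fell from 4299 ± 133 CPM in Control to 2847 ± 122 CPM in OSI, while the mitochondrial sums lay between 372.6 and 511.2 CPM in all libraries.

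OSI against Control asks how the ligase genes respond to the EGFR inhibitor alone in cells resistant to it. Of the 19 cytosolic ligases 15 fell and 0 rose, and of the 16 mitochondrial ligases 1 fell and 0 rose (edgeR quasi-likelihood test, Benjamini-Hochberg adjusted p under 0.05 over all genes tested). Over all tested genes 8.23% fell and 10.6% rose. The median log2 fold change was -0.63 in the cytosolic class, 0.11 in the mitochondrial class and -0.01 over all genes. At an unadjusted p under 0.05, 0 cytosolic and 2 mitochondrial ligases were higher. The share of all genes at an unadjusted p under 0.05 was not computed, here or below. Ligase counts at that threshold cannot be set against the shares given for adjusted p. DESeq2 called 15 cytosolic and 3 mitochondrial genes, and limma-voom 15 and 1. Of all 20820 genes DESeq2 called 2700 higher and 2211 lower, and limma-voom 2314 and 1742.

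WARS1 (ENSG00000140105), the tryptophan ligase and also an interferon-induced gene, was at 264, 324 and 270.3 CPM in Control and at 93.9, 98.4 and 94.4 CPM in OSI. All OSI libraries lay below all others of the study for this gene. GARS1 (ENSG00000106105), the glycine ligase, was at 369, 314 and 329 CPM in Control and at 174, 163 and 139 CPM in OSI, a 2.12-fold fall (log2 fold change -1.09 ± 0.15 SE, adjusted p = 0.000353). SARS1 (ENSG00000031698), the serine ligase, was at 488, 602 and 460 CPM against 309, 283 and 260.2 CPM, a 1.82-fold fall (log2 -0.86 ± 0.13, adjusted p = 0.000452). In GARS1 and SARS1 the highest OSI library was well below the lowest Control library. The share of all genes without overlap between groups was computed only for OSI above Control, here and below.

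The other falls were smaller. NARS1 (asparagine) fell 1.5-fold, CARS1 (cysteine) 1.54-fold, YARS1 (tyrosine) 1.47-fold, MARS1 (methionine) 1.74-fold, AARS1 (alanine) 1.4-fold and IARS1 (isoleucine) 1.56-fold, each with an adjusted p between 0.002 and 0.00762. LARS1 (leucine), TARS1 (threonine), EPRS1, VARS1 (valine), HARS1 (histidine) and FARSB (the beta subunit for phenylalanine) fell with log2 changes of -0.57, -0.78, -0.81, -0.66, -0.41 and -0.63 and adjusted p between 0.014 and 0.046. For these last 6 genes single libraries ended the call, with log2 changes between -0.84 and -0.33 and adjusted p between 0.0511 and 0.156 without them. LARS1 needed Control 1 and OSI 3, TARS1 needed Control 1, OSI 2 and OSI 3, and EPRS1 needed Control 1, Control 3 and each OSI library. VARS1 and HARS1 needed Control 2 and each OSI library, and FARSB needed Control 1, Control 3 and each OSI and DAC library. HARS1 was also not called without the filter on low counts. Without OSI 3 the cytosolic count was 9, with 1553 of 21569 genes higher and 1167 lower.

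The remaining cytosolic genes were RARS1 (arginine), KARS1 (lysine), FARSA (the alpha subunit for phenylalanine) and QARS1 (glutamine), with log2 changes of -0.14, -0.17, -0.01 and 0.44. FARSA and FARSB form one enzyme, and FARSA was at 90.5, 121 and 88.9 CPM in Control and 102, 94.7 and 102.5 CPM in OSI, with overlapping groups. QARS1 (ENSG00000172053) was the one cytosolic ligase above Control in every OSI library, which was so for 21.5% of all genes, at 242, 337 and 265 CPM against 383, 381 and 381 CPM (adjusted p = 0.2). In the 10-library fit its log2 change was 0.6 and its adjusted p was 7.51e-07, in a comparison where 21.5% of all genes rose. That fit called 17 cytosolic ligases lower and 1 higher, and 3 mitochondrial ligases lower and 3 higher, with 20.8% of all genes lower.

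MARS2 (ENSG00000247626), the mitochondrial methionine ligase, was at 20.9, 25.5 and 20.03 CPM in Control and at 13.3, 13.8 and 14.5 CPM in OSI, below Control in every library. It fell 1.6-fold (log2 -0.68 ± 0.13, adjusted p = 0.0031). The other mitochondrial ligases had log2 changes from -0.91 (VARS2, adjusted p = 0.122) to 0.36 (PARS2, the proline enzyme, adjusted p = 0.0831). The mitochondrial count was 2 without Control 2, 2 without OSI 3 and 4 without DAC+OSI 2. Genes higher and lower were 2027 and 1643 of 21569 without Control 2, and 3517 and 3214 of 21531 without DAC+OSI 2.

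**Figure D2:**
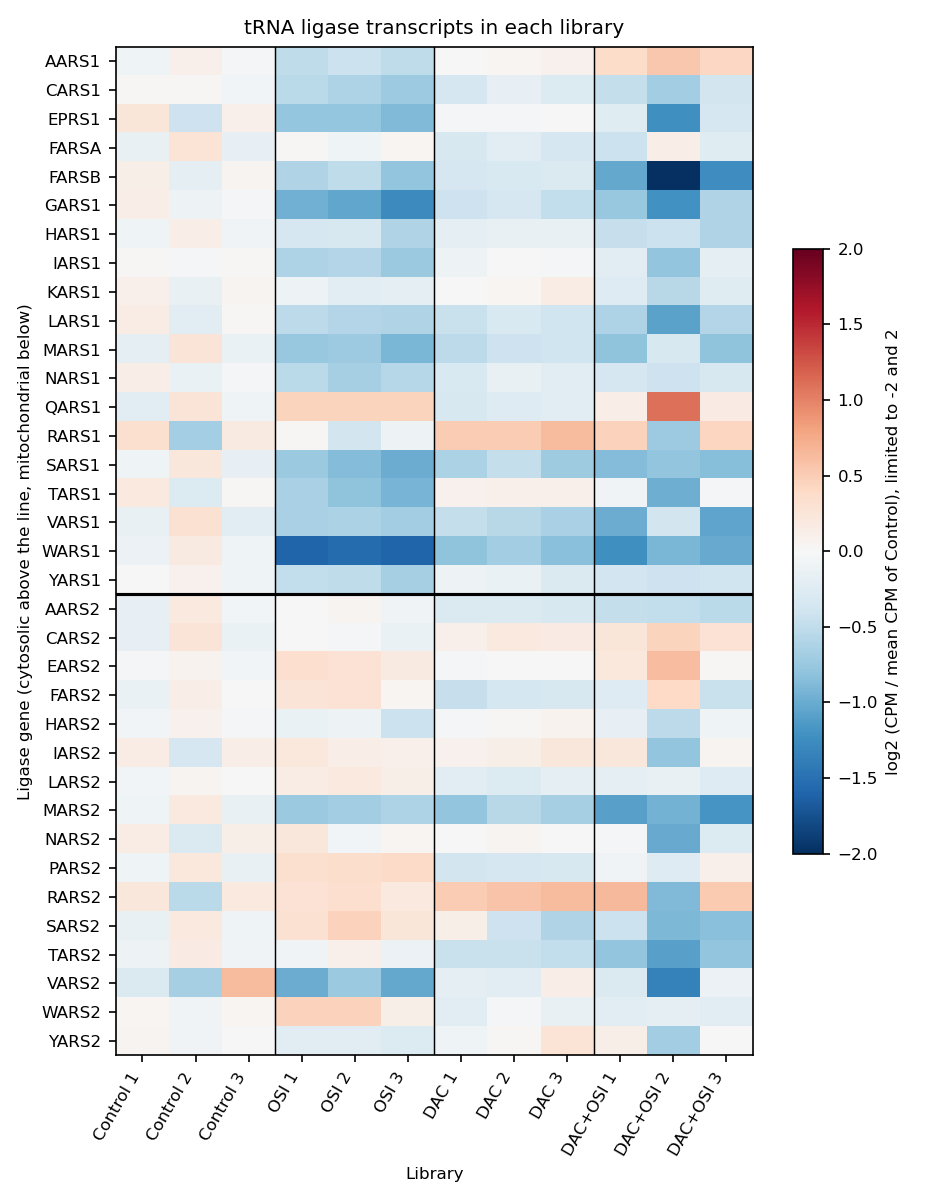
Log2 ratio of CPM in each of the 12 libraries to the mean of Control for all 35 ligases, cytosolic above the black line and mitochondrial below it. Blue columns under OSI are limited mainly to the upper block, WARS1 is the darkest row there, and Control 2 and DAC+OSI 2 differ from the neighbouring libraries of their groups in rows such as RARS1, EPRS1 and RARS2.

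Of the 11 cytosolic ligases known as ATF4 targets (AARS1, CARS1, EPRS1, GARS1, IARS1, MARS1, NARS1, SARS1, TARS1, WARS1 and YARS1), 11 fell with OSI, with a median log2 change of -0.78. Of the other 8, 4 fell (HARS1, LARS1, VARS1 and FARSB), with a median of -0.29. In the 10-library fit all 11 were lower, and of the other 8, 6 were lower and 1 was higher. Medians there were -0.66 and -0.36, with 20.8% of all genes lower and 21.5% higher. The 7 genes with the TGATGNAA letters all fell, by log2 changes between -1.09 and -0.48, and 5 of the 9 cytosolic genes whose windows lack them fell. The multi-synthetase complex is a cytosolic assembly of several ligases. Of its 7 measured ligases 4 fell (EPRS1, IARS1, LARS1 and MARS1), and of the 12 outside it 11 fell. The median log2 changes were close, at -0.57 and -0.63. In the 10-library fit 6 of the 7 were lower and 1 higher, and 11 of the 12 were lower, with medians of -0.64 and -0.62. By catalytic fold, 8 of 10 class I and 7 of 9 class II cytosolic enzymes fell.

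Genes of the same pathways were counted from lists. In the integrated stress response list (EIF2AK4, ATF4, DDIT3, TRIB3, ASNS, CHAC1, SESN2, PSAT1, PHGDH and SLC7A11), 8 of 10 fell with OSI and 0 rose, with a median log2 change of -1.04. ATF4 itself fell with a log2 change of -0.66 (adjusted p = 0.0245, and not called without Control 2 or any one OSI library). In the interferon list (IRF1, GBP1, GBP2, IFIT1, ISG15, MX1, IFI6, PSMB9 and TAP1) 6 of 9 rose and 0 fell, with a median of 0.99, in the same libraries in which WARS1 was lowest.

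Partners of the ligases were counted in the same way. XPOT, which exports tRNA from the nucleus, fell 2.0-fold (adjusted p = 0.0112), and EEF1B2, a subunit of the exchange factor that reloads the carrier of aminoacyl-tRNA, fell 1.54-fold (adjusted p = 0.0184, not called without Control 2 or OSI 3). EEF1A1, TUFM and TSFM of the same list were not called, and EEF1G was not analysed here. Of the proofreading and ligase-like genes (AARSD1, DTD1 and TARS3), DTD1, which removes D-amino acids from tRNA, fell from 21.9, 25.5 and 20.03 CPM to 10.5, 10.01 and 8.95 CPM (2.29-fold, adjusted p = 3.58e-05). Of the scaffold genes of the complex (AIMP1, AIMP2 and EEF1E1), AIMP2 fell (log2 -0.55, adjusted p = 0.0304, not called without Control 1, Control 2, DAC 2 or any OSI library). The 4 genes of the mitochondrial route to glutaminyl- and formylmethionyl-tRNA (QRSL1, GATB, GATC and MTFMT) had 0 calls in the edgeR fit of 12 libraries in any of the 7 comparisons. In the 10-library fit 1 of them was lower with OSI than in Control (QRSL1, log2 -0.4, adjusted p = 0.00126), 2 were higher and 1 lower in DAC against OSI, and 1 was higher and 1 lower in DAC+OSI against OSI.

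DAC against Control asks what dauricine alone does. It lowered 2 cytosolic ligases, WARS1 and SARS1, and 2 mitochondrial ones, MARS2 and TARS2, and raised 0 of either class (same test). Over all tested genes 4.11% fell and 5.33% rose. Class medians were -0.26 and -0.1, against 0.01 over all genes. At an unadjusted p under 0.05, 7 cytosolic and 4 mitochondrial ligases were lower and 0 were higher, while DESeq2 called 4 cytosolic ligases and limma-voom 2, and both called 2 mitochondrial ones. Of all 20820 genes DESeq2 called 1567 higher and 1414 lower, and limma-voom 1193 and 959.

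WARS1 was at 163, 176 and 161 CPM in DAC, below all Control libraries and above all OSI libraries, a 1.72-fold fall from Control (log2 -0.78 ± 0.12, adjusted p = 0.00168). SARS1 was at 334, 373 and 316 CPM, a 1.51-fold fall (adjusted p = 0.0108) that was not called without DAC 1 or DAC 3 (log2 between -0.61 and -0.57, adjusted p up to 0.0725). MARS2 was at 12.8, 15.1 and 14.01 CPM, a 1.59-fold fall (adjusted p = 0.00753, and 0.0516 without DAC 1). In these genes no DAC library reached the Control range.

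TARS2 (ENSG00000143374), the mitochondrial threonine ligase, was at 57.3, 68.8 and 58.7 CPM in Control and at 45.4, 45.2 and 43.7 CPM in DAC. The groups did not overlap, and the fall was 1.38-fold (adjusted p = 0.0362). That call ended without Control 2, Control 3 or any one DAC library (adjusted p between 0.0556 and 0.132), without the filter on low counts, and with a correction for GC content. AARS1 and TARS1, which fell with OSI, were at 359 to 379 CPM and 378 to 380.2 CPM in DAC, with log2 changes of 0.05 and 0.1 from Control (adjusted p = 0.824 and 0.823).

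The counts for DAC depended on DAC+OSI 2, which is in neither group: without it 9 cytosolic and 6 mitochondrial ligases were called. In that fit 2283 of 21531 genes were higher and 2528 lower, against 1109 and 855 of 20820 with all libraries. Calls over all genes thus rose as well, and whether those of the ligases rose by more was not tested. The cytosolic count was 1 without DAC 1 or DAC 3, and the mitochondrial count was 0 without DAC 1 and 1 without Control 2, Control 3, DAC 2 or DAC 3. Genes lower were 377 of 21467 without DAC 1 and 280 of 21464 without DAC 3. With the replicate number as a block 4 cytosolic ligases were called, with 1375 of 20820 genes higher and 1033 lower. The 10-library fit called 10 cytosolic ligases lower and 1 higher, and 3 mitochondrial ligases lower and 2 higher, with 12.8% of all genes lower and 13.1% higher.

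DAC+OSI against Control asks what both compounds do together. Of the cytosolic ligases 12 fell and 1 rose, and of the mitochondrial ligases 4 fell and 0 rose, with 12.8% of all genes lower and 15.4% higher. Medians were -0.49 and -0.21, against 0.03 over all genes. By DESeq2 14 cytosolic and 4 mitochondrial ligases were called, with 3674 of 20820 genes higher and 3187 lower. At an unadjusted p under 0.05 1 mitochondrial ligase was higher.

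AARS1 (ENSG00000090861), the alanine ligase, was the one that rose. It was at 335, 383 and 351 CPM in Control, 251, 265 and 250.3 CPM in OSI, 359, 367 and 379 CPM in DAC, and 459, 516 and 477 CPM in DAC+OSI. OSI libraries were the lowest, DAC libraries lay within the Control range, and DAC+OSI libraries were above all others. The rise over Control was 1.36-fold (log2 0.44 ± 0.1, adjusted p = 0.00614), and was not called without Control 1 (log2 0.37, adjusted p = 0.0563).

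FARSB (ENSG00000116120) was at 88.8, 71.1 and 85.1 CPM in Control, 53.6, 57.5 and 47.3 CPM in OSI, 65.04, 65.9 and 66.9 CPM in DAC, and 40.3, 20.04 and 34.6 CPM in DAC+OSI. The DAC+OSI libraries were the lowest of the study, and DAC+OSI 2 the lowest among them. The fall from Control was 2.57-fold (log2 -1.36 ± 0.21, adjusted p = 0.000314), and the log2 change was -1.22 in the 10-library fit. Its partner FARSA had a log2 change of -0.16 (adjusted p = 0.484).

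WARS1 was at 122, 152 and 142 CPM in DAC+OSI, between OSI and DAC, and 2.06-fold below Control (adjusted p = 4.15e-05). SARS1 (-0.83), GARS1 (-0.84), LARS1 (-0.74), CARS1 (-0.51), HARS1 (-0.49), VARS1 (-0.77), MARS1 (-0.62), YARS1 (-0.4), NARS1 (-0.36) and KARS1 (-0.35) also fell on the log2 scale, with adjusted p from 0.000364 to 0.0458. NARS1 was not called without Control 1 (adjusted p = 0.0829), and KARS1 not without Control 1, Control 3 or DAC 2 (adjusted p between 0.0502 and 0.11). TARS1, EPRS1 and IARS1, which fell with OSI, were not called in the fit of 12 libraries (log2 -0.29, -0.53 and -0.36, adjusted p = 0.327, 0.0912 and 0.0785), and in each of them DAC+OSI 2 was the lowest library of its group. TARS1 was at 338, 181 and 348 CPM, EPRS1 at 199, 101 and 187 CPM, and IARS1 at 269, 180.1 and 274 CPM.

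Among the mitochondrial ligases MARS2 was at 10.4, 11.6 and 9.82 CPM in DAC+OSI, below every other library of the study, and fell 2.09-fold from Control (log2 -1.07 ± 0.13, adjusted p = 7.62e-05). TARS2 was at 35.8, 29.1 and 35.8 CPM, also the lowest group, and fell 1.83-fold (log2 -0.87 ± 0.13, adjusted p = 0.000219). AARS2, the mitochondrial alanine enzyme, fell 1.42-fold (adjusted p = 0.00737) where cytosolic AARS1 rose. SARS2 fell 1.62-fold (adjusted p = 0.0249), but was not called without Control 2 or DAC+OSI 3 (adjusted p = 0.0706 to 0.0731) or in the 10-library fit (0.0528). Of its exon bases 57% are shared with AC011455.2 and MRPS12, 46.2% on the same strand and 10.8% on the opposite strand. The share of each of these genes was not computed.

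Control 2 and DAC+OSI 2 deviated in the same direction (correlation over all genes 0.43), while the libraries numbered 1 and 3 were not paired by the data. The comparison was also fitted on the 6 Control and DAC+OSI libraries alone. Without the replicate number as a block 5 cytosolic and 2 mitochondrial ligases were called there, and CARS1, AARS1, HARS1, VARS1, MARS1, YARS1, NARS1, KARS1, AARS2 and SARS2 were not. With the block in the same fit all 17 were called, and 3 more: EPRS1 (log2 -0.6, adjusted p = 0.00753) and IARS1 (log2 -0.42, adjusted p = 0.0497) were lower, and QARS1 (log2 0.45, adjusted p = 0.0452) was higher. Of 19536 genes, 1582 were higher and 1376 lower without the block, and 3225 and 3449 with it. This block was chosen after seeing the data, and its added calls are no independent support. With the block in the fit of 12 libraries EPRS1 (adjusted p = 0.0445) and CARS2 (higher, log2 0.33, adjusted p = 0.0493) were added. EPRS1 and IARS1 were also lower in the 10-library fit (adjusted p = 6.63e-05 and 0.0233), and TARS1 was called by 0 of the 23 alternatives. The 10-library fit called 14 cytosolic ligases lower and 2 higher, and 3 mitochondrial ligases lower and 2 higher, with 20.2% of all genes lower and 20.8% higher. AARS1, YARS1, NARS1 and KARS1 were also not called without the filter on low counts, and NARS1 not with the GC correction.

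**Figure D3:**
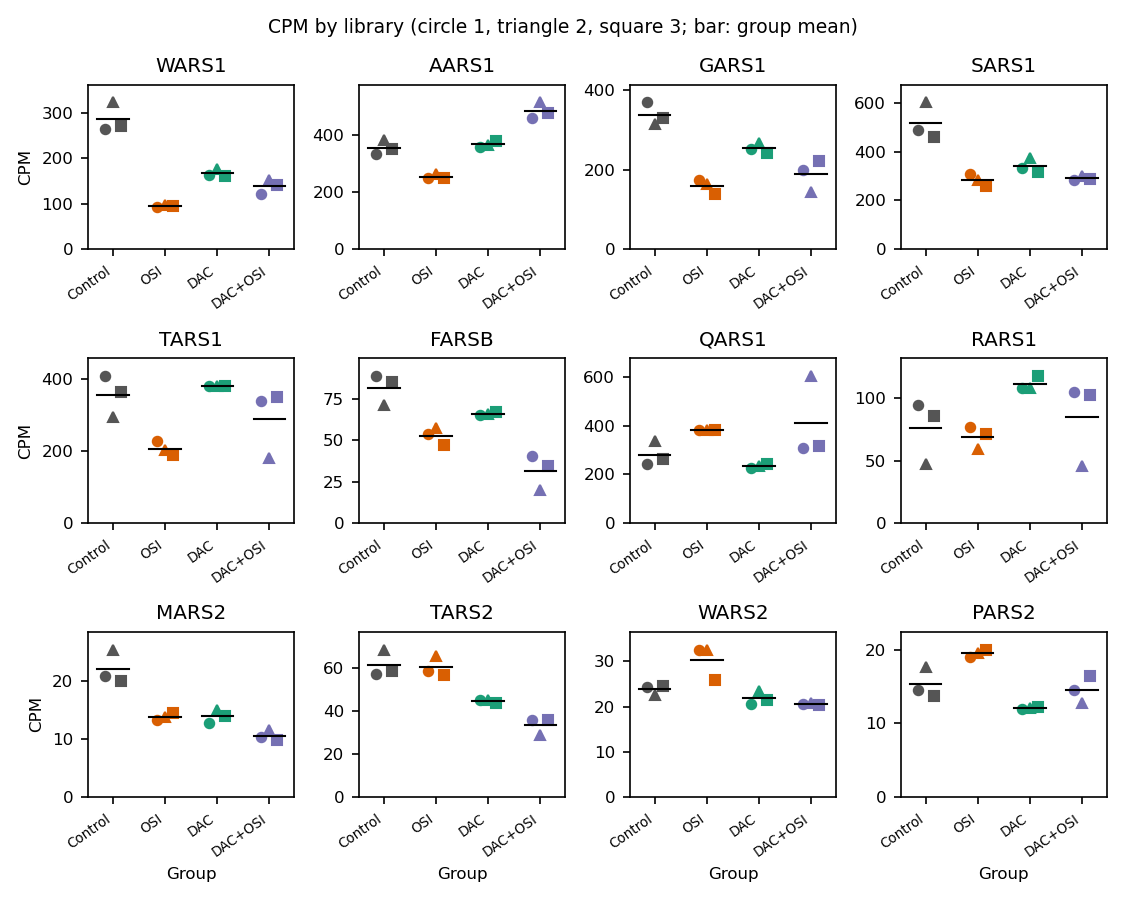
CPM in each library for 12 of the named ligases, by group; symbols mark the replicate number and bars the group mean, and each axis starts at 0. AARS1 is lowest in OSI and highest in DAC+OSI, FARSB, MARS2 and TARS2 are lowest in DAC+OSI, and QARS1 in DAC+OSI 2 reaches 603.9 CPM against 308.3 and 315.4 CPM in the other libraries of that group.

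DAC against OSI sets the single compounds side by side. Of the cytosolic ligases 9 were higher with DAC and 1 was lower, and of the mitochondrial ligases 0 were higher and 4 were lower, against 10.2% of all genes higher and 10.5% lower. Medians were 0.37 and -0.17, and 0.02 over all genes. At an unadjusted p under 0.05, 1 mitochondrial ligase was higher, and DESeq2 and limma-voom each called 6 mitochondrial and 10 cytosolic genes. Of all 20820 genes DESeq2 called 2680 higher and 2799 lower, and limma-voom 2260 and 2397. All 9 higher genes are in the ATF4 list, and 6 of the 7 genes with the TGATGNAA letters were higher. Of the 9 cytosolic genes whose windows lack these letters 2 were higher and 1 was lower. In the 10-library fit all 11 genes of the ATF4 list were higher, with 24.3% of all genes higher. There 5 of the 8 cytosolic ligases outside the list were higher and 2 lower. These counts use the same OSI libraries as OSI against Control and are no independent support.

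TARS1 (ENSG00000113407) was at 228, 203 and 187 CPM in OSI and at 378, 380.2 and 379.9 CPM in DAC, a 1.84-fold difference (log2 0.88 ± 0.21, adjusted p = 0.0103, and 0.0514 without OSI 3). WARS1 was 1.74-fold higher with DAC (log2 0.8 ± 0.12, adjusted p = 0.000508), AARS1 1.44-fold (adjusted p = 0.00297) and GARS1 1.6-fold, at 252, 267 and 241 CPM (adjusted p = 0.00796). In all 4 genes every DAC library lay above every OSI library. This was so for 16 of the 19 cytosolic ligases, while 2 lay below, and the share of all genes was not computed. IARS1 (0.59), EPRS1 (0.8), YARS1 (0.38), NARS1 (0.37) and CARS1 (0.37) were higher on the log2 scale.

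QARS1 went the other way, at 226, 235 and 244 CPM in DAC against 381 to 383 CPM in OSI (1.62-fold lower, adjusted p = 0.0409). PARS2 (ENSG00000162396) was at 19.1, 19.6 and 20.04 CPM in OSI and at 11.9, 12.1 and 12.2 CPM in DAC, with no overlap (1.62-fold lower, log2 -0.7 ± 0.13, adjusted p = 0.00281). WARS2, the mitochondrial tryptophan enzyme, was lower with DAC where WARS1 was higher, at 32.6, 32.6 and 25.9 CPM in OSI and 20.7, 23.4 and 21.4 CPM in DAC (1.39-fold, adjusted p = 0.015). LARS2 and TARS2 were 1.3-fold and 1.35-fold lower (adjusted p = 0.0217 and 0.0254).

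Of these 14 calls 10 ended when 1 library was left out, with log2 changes between -0.74 and 0.8 and adjusted p up to 0.177. TARS1 and IARS1 needed OSI 3, WARS2 needed OSI 1, OSI 2, DAC 1 and DAC 3, and LARS2 and TARS2 needed OSI 1, OSI 2 and each DAC library. YARS1 needed each OSI library, DAC 1 and DAC 2, and EPRS1 each OSI and DAC library. NARS1 needed these and Control 3, QARS1 these, Control 1 and Control 3, and CARS1 every library but DAC+OSI 2. LARS2, YARS1, TARS2, NARS1 and CARS1 were not called without the filter on low counts, and TARS2 not with the GC correction. The cytosolic count was 5 to 6 without a DAC library, 5, 5 and 3 without OSI 1, OSI 2 and OSI 3, and the mitochondrial count was 1 without DAC 3, OSI 1 or OSI 2, 2 without DAC 1 or DAC 2, 7 without Control 2 and 9 without DAC+OSI 2. Genes higher and lower were 1296 and 1573 of 21569 without OSI 3, and 3833 and 4077 of 21531 without DAC+OSI 2. The 10-library fit called 16 cytosolic ligases higher and 2 lower, and 5 mitochondrial ligases higher and 8 lower, with 24.3% of all genes higher and 23.8% lower.

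Of the partner genes, DTD1 was at 19.3, 20.3 and 20.4 CPM in DAC, 2.04-fold above OSI (adjusted p = 0.000106), and XPOT at 230.3, 241 and 219.7 CPM, 1.66-fold above OSI (adjusted p = 0.0459, not called without Control 3 or any one OSI or DAC library). In the integrated stress response list 3 of 10 genes were higher with DAC than with OSI and 0 lower, namely TRIB3, PSAT1 and the cystine transporter gene SLC7A11. In the 10-library fit 7 were higher and 2 lower, the lower ones being ASNS and PHGDH. In the interferon list 0 were higher and 6 lower.

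DAC+OSI against OSI asks what adding dauricine to osimertinib does. AARS1 rose 1.89-fold (log2 0.92 ± 0.1, adjusted p = 4.65e-05) and WARS1 1.45-fold (adjusted p = 0.00837), and FARSB fell 1.66-fold (adjusted p = 0.0259), so that 2 cytosolic ligases rose and 1 fell. Of the mitochondrial ligases 0 rose and 6 fell. Over all tested genes 9.01% rose and 7.96% fell, and medians were 0.16, -0.31 and 0.04. By DESeq2 3 cytosolic and 7 mitochondrial ligases were called, with 2362 of 20820 genes higher and 2184 lower. At an unadjusted p under 0.05, 1 mitochondrial ligase was higher.

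TARS2 fell 1.8-fold, from 58.9, 66 and 57 CPM to 35.8, 29.1 and 35.8 CPM (log2 -0.85 ± 0.13, adjusted p = 0.00047). SARS2 fell 2.05-fold, from 6.15, 6.86 and 5.92 CPM to 3.71, 2.68 and 2.8 CPM (adjusted p = 0.00452). WARS2 fell 1.48-fold, to 20.6, 20.8 and 20.3 CPM (adjusted p = 0.00698). For these 3 genes each DAC+OSI library was below each OSI library. This was so for 7 of the 16 mitochondrial ligases, while 1 lay above, and the share of all genes was not computed.

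AARS2, LARS2 and PARS2 fell with log2 changes of -0.5, -0.36 and -0.42 (adjusted p = 0.0128, 0.032 and 0.0478), and PARS2 was not called with the replicate number as a block. The calls of WARS1 (without OSI 1 or OSI 3), FARSB (OSI 1 or OSI 2) and AARS2 (OSI 2 or DAC+OSI 3) ended with adjusted p between 0.0509 and 0.0803. LARS2 needed each OSI and DAC library, DAC+OSI 1 and DAC+OSI 3, and PARS2 each OSI and DAC library, Control 1, Control 3 and DAC+OSI 1, with adjusted p up to 0.121 otherwise. In a fit of the OSI and DAC+OSI libraries alone WARS1, FARSB, WARS2, AARS2, LARS2 and PARS2 were not called, and without the filter on low counts AARS2, LARS2 and PARS2 were not. The cytosolic count was 1 without OSI 1 and 9 without DAC+OSI 2, and the mitochondrial count was 3 without OSI 2. Genes higher and lower were 1143 and 1172 of 21580 without OSI 1, and 1106 and 1103 of 21565 without OSI 2. They were 2828 and 3008 of 21531 without DAC+OSI 2. In the 10-library fit 8 cytosolic ligases rose and 4 fell, and 3 mitochondrial ligases rose and 8 fell, with 20.9% of all genes higher and 19.8% lower.

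DAC+OSI against DAC asks what adding osimertinib to dauricine does. FARSB fell 2.07-fold (log2 -1.05 ± 0.2, adjusted p = 0.00578) and KARS1 1.33-fold (adjusted p = 0.0463), while AARS1 rose 1.31-fold (adjusted p = 0.0274) and QARS1 1.74-fold (adjusted p = 0.0373). Over all tested genes 4.52% fell and 6.1% rose. Of the mitochondrial ligases 0 were called by edgeR and by limma-voom and 1 by DESeq2, and 1 was higher and 2 lower at an unadjusted p under 0.05. Of all 20820 genes DESeq2 called 1969 higher and 1425 lower, and limma-voom 1228 and 992. Medians were -0.26 and -0.24, against 0.01 over all genes.

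KARS1 was at 119, 121 and 131 CPM in DAC and at 98.4, 80.3 and 100.2 CPM in DAC+OSI, without overlap. QARS1 was at 308, 604 and 315 CPM in DAC+OSI, so that its rise over DAC (log2 0.8) was 0.41 in the 10-library fit. AARS1, KARS1 and QARS1 lost their calls when any one OSI or DAC library was left out, and also without Control 3, with adjusted p from 0.0509 to 0.154. AARS1 also needed DAC+OSI 3, and KARS1 and QARS1 also Control 1. In a fit of the DAC and DAC+OSI libraries alone none of the 4 was called, and AARS1 and KARS1 were not called without the filter on low counts. The cytosolic count of 4 was 1 without Control 3 or any one DAC or OSI library, and 2 without Control 1. The mitochondrial count was 1 without Control 2 or without DAC+OSI 2. Genes higher and lower were 1055 and 794 of 21601 without Control 3, and 1363 and 1048 of 21569 without Control 2. They were 1455 and 1236 of 21531 without DAC+OSI 2. In the 10-library fit 2 cytosolic ligases rose and 11 fell, and 1 mitochondrial ligase rose and 2 fell, with 12.6% of all genes higher and 11.2% lower.

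**Figure D4:**
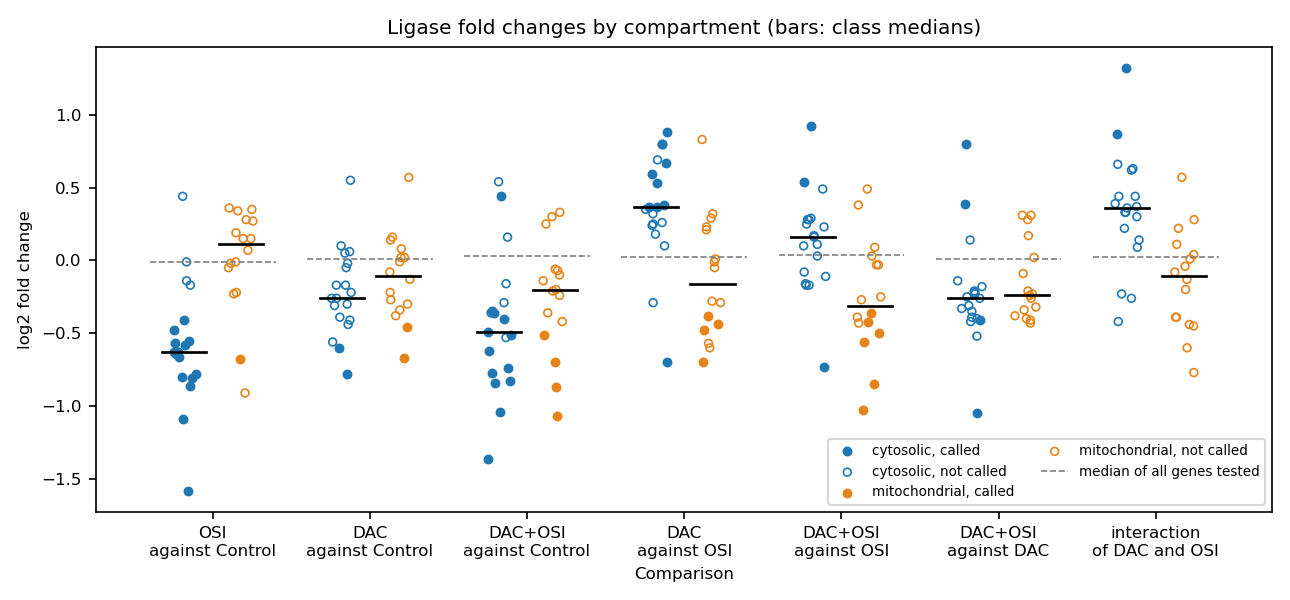
Log2 fold changes of the cytosolic (blue) and mitochondrial (orange) ligases in the 7 comparisons; filled points passed the test, black bars are class medians and dashed lines the median of all genes tested. The cytosolic median is -0.63 in OSI against Control and 0.37 in DAC against OSI, where the mitochondrial medians are 0.11 and -0.17.

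The interaction sets the change that DAC made on top of OSI (DAC+OSI against OSI) against the change it made alone, as a difference of log2 fold changes. It passed the test for WARS1 (log2 1.32 ± 0.17, adjusted p = 0.00138) and AARS1 (log2 0.87 ± 0.14, adjusted p = 0.00563), both positive, and for 0 other ligases. Among all genes 1.01% were positive and 1.91% negative. DAC lowered WARS1 by itself (log2 -0.78) but raised it over OSI (0.54), and the log2 change of AARS1 with DAC was 0.05 without OSI and 0.92 with it. Both calls held without any single library and in the 10-library fit.

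The cytosolic median interaction was 0.36 and the mitochondrial median -0.11, against 0.02 over all genes. The 11 ATF4 targets had interactions above 0 without exception, with a median of 0.44. The change from Control to OSI enters the interaction with its sign reversed, and all 11 fell with OSI. Their shared sign therefore rests in part on the same values and is no independent support. Of the other 8 cytosolic ligases 5 were above 0, VARS1 (0.44) and QARS1 (0.36) among them, with a median of 0.11. Below 0 were FARSB (-0.42), RARS1 (-0.26) and KARS1 (-0.23). In the 10-library fit 3 of these 8 were above 0 and 5 below, with RARS1 at 0.28 and FARSB at -0.1. At an unadjusted p under 0.05, 8 cytosolic ligases were positive and 0 negative, and 0 mitochondrial ligases were positive and 3 negative, with no share of all genes computed at that threshold. DESeq2 called 5 cytosolic and 0 mitochondrial ligases, and limma-voom 2 and 0. Of all 20820 genes DESeq2 called 556 positive and 762 negative, and limma-voom 205 and 423. The cytosolic count was 7 without DAC+OSI 2, where 583 of 21531 genes were positive and 880 negative. The 10-library fit had 10 cytosolic ligases positive and 3 mitochondrial ligases negative, with 9.85% of all genes positive and 10.4% negative.

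In the integrated stress response list 4 of 10 genes had a positive interaction and 0 a negative one, with a median of 1.03 and all 10 above 0. In the 10-library fit 6 were positive and 0 negative. All 10 also had log2 changes below 0 in OSI against Control, which enters the interaction with its sign reversed. TRIB3, a pseudokinase induced by ATF4, was at 158, 158 and 145 CPM in OSI and at 375, 521 and 385 CPM in DAC+OSI, against 330, 437 and 313 CPM in Control and 344, 361 and 370.4 CPM in DAC. Like AARS1 it was lowest in OSI. ASNS, the asparagine synthetase gene and another ATF4 target, was instead low in all treated groups, at 14.8, 54 and 17.3 CPM in DAC+OSI against 90.1, 192 and 95.7 CPM in Control (4.43-fold lower, adjusted p = 0.00356), and 44.6% of its exon bases are shared with another gene.

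In the edgeR fit of 12 libraries 11 ligases were called in none of the 7 comparisons. Of these 2 are cytosolic, FARSA and RARS1, and 9 are mitochondrial: CARS2, EARS2, FARS2, HARS2, IARS2, NARS2, RARS2, VARS2 and YARS2. All but IARS2 and NARS2 were called in 1 or more comparisons in the 10-library fit, and NARS2 by another alternative. FARS2, the mitochondrial phenylalanine enzyme, was nearest to the threshold, in DAC against OSI (log2 -0.57, adjusted p = 0.0503, and 8.38e-05 in the 10-library fit). The arginine enzymes RARS1 and RARS2 held the lowest deviations of Control 2 and DAC+OSI 2 given above. RARS1 was at 94.2, 47.3 and 85.8 CPM in Control, 76.9, 58.9 and 71 CPM in OSI, 108, 108 and 118 CPM in DAC, and 105, 45.9 and 102 CPM in DAC+OSI. RARS2 was at 35, 20.5 and 34.2 CPM in Control, 36.7, 37.7 and 34.3 CPM in OSI, 42.6, 44.4 and 46.3 CPM in DAC, and 46.8, 16.3 and 42.9 CPM in DAC+OSI. In both genes Control 2 and DAC+OSI 2 were the lowest libraries, and every DAC library was above every Control library. The log2 changes with DAC were 0.55 ± 0.29 for RARS1 (adjusted p = 0.279) and 0.57 ± 0.3 for RARS2 (adjusted p = 0.289), and 0.3 and 0.35 in the 10-library fit (adjusted p = 0.0179 and 0.00177).

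IARS2, the most abundant mitochondrial ligase per length, was at 117, 83.1 and 115 CPM in Control and at 123, 60.5 and 109 CPM in DAC+OSI, again with the libraries numbered 2 lowest. CARS2 was at 46.8, 62.6 and 48.03 CPM in Control and at 61.8, 71.2 and 64.3 CPM in DAC+OSI, with overlapping groups (log2 0.33, adjusted p = 0.0785, and 0.000229 in the 10-library fit). EARS2, the mitochondrial glutamate enzyme, was at 33.1, 35.3 and 32.5 CPM in Control and at 42.6, 41.02 and 38.1 CPM in OSI, without overlap (adjusted p = 0.218, and 0.00313 in the 10-library fit).

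Some ligases share reads or start regions with neighbours, and the labels do not say whether strand was kept. HARS1 and HARS2, closely related copies, start 85 bases apart in opposite directions on chromosome 5 (140691370 and 140691455, GRCh38.p14), and reads could be split between them. HARS2 was at 32.1, 35.2 and 32.3 CPM in Control and 30.3, 30.9 and 24.6 CPM in OSI. MARS1 shares 12.4% of its exon bases with genes on the opposite strand, DDIT3 among them, and DDIT3 shares 31.6% of its own. DDIT3 stayed between 5.91 and 15.8 CPM, against 173 to 389 CPM of MARS1.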

How the data were processed

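The authors deposited raw counts per Ensembl gene for 12 libraries, made with CASAVA, HISAT2 and featureCounts, per the submitters' processing notes, which name no versions. Per the labels' protocols, mRNA was enriched with oligo(dT) beads, primed with random hexamers and amplified by PCR. Genome build, annotation and strand setting: not given in the sources used here. Symbols were looked up in a gene name table that held 39178 of 39266 identifiers, exon lengths, overlaps and GC content from GENCODE 29 (37919 identifiers), and promoters from RefSeq. The 35 ligases and all lists, the ATF4 list included, were chosen with earlier results of these data known. A further gene of the interferon list is not reported here, and its counts and median are without it. The members to describe in full were those with the smallest adjusted p, up to 4 per class and comparison.

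Counts were filtered with filterByExpr, scaled by TMM and tested with the quasi-likelihood test of edgeR 4.0.16 (R 4.3.3) in 1 fit of all 12 libraries with 1 mean per group and 8 residual degrees of freedom. Tests were two-sided, and p-values were adjusted by Benjamini-Hochberg over 20820 genes within each of 7 comparisons, with a call at an adjusted p under 0.05. The biological coefficient of variation was 20.9%. SE is the log2 fold change divided by the square root of F. The fit was tested on simulated counts.

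Totals of 24.9 to 66.9 mega-counts set a floor (3 counts) of 0.0449 to 0.12 CPM, which covers counting error only, since PCR copies are not independent molecules. Where no separate cultures are stated, a p-value covers the spread between libraries only, and that spread may be technical. No pair of libraries agreed within sampling noise.

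Deviations of same-numbered Control and DAC+OSI libraries from their group means correlated at 0.2 to 0.43, and those of the other 15 same-numbered pairs at -0.06 to 0.08. Control 1 correlated at 0.285 with DAC+OSI 1 and at 0.282 with DAC+OSI 3, and Control 3 at 0.168 and 0.2 with the same libraries. The data therefore set Control 2 and DAC+OSI 2 apart together but do not pair the libraries numbered 1 and 3. The labels state no pairing. Alternatives were RLE and upper quartile scaling, no filter, DESeq2 1.42.0, limma-voom (limma 3.58.1), a fit of only the groups compared, each library left out, the replicate number as a block, 10 libraries (without Control 2 and DAC+OSI 2), and a GC correction with and without the block. The block in a fit of only the groups compared was chosen after seeing the data.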

Additional observations from a re-analysis of the deposited data

Results flagged for a closer look

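For 2 ligases and 4 genes of the integrated stress response list, the effect of DAC with OSI differed from its effect without OSI by the test of the difference itself (edgeR quasi-likelihood test of the interaction, Benjamini-Hochberg adjusted). On the log2 scale the difference was 1.32 for WARS1 (adjusted p = 0.00138) and 0.87 for AARS1 (adjusted p = 0.00563). It was 1.48 for TRIB3 (adjusted p = 0.00325), 1.34 for SESN2 (adjusted p = 0.0114, not called without OSI 1 or DAC 3), 1.91 for CHAC1 (adjusted p = 0.0216) and 1.34 for DDIT3 (adjusted p = 0.0276). The call of CHAC1 ended without Control 2 or any one OSI or DAC library, and that of DDIT3 without Control 1, Control 3, DAC 1, DAC 3, DAC+OSI 3 or any one OSI library. In the 10-library fit the values were 1.14 for WARS1, 0.77 for AARS1, 1.14 for TRIB3, 0.95 for SESN2, 1.22 for CHAC1 and 1.62 for DDIT3. All 6 were positive.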

How the results depend on the processing

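Of 66 calls of single ligases, 27 held under every alternative run (23, of which 12 left out 1 library), and 0 reversed. RLE and upper quartile scaling, DESeq2 and limma-voom ended 0 of them, no filter ended 16, and only the groups compared ended 20 of 64. The replicate block ended 1 of the 66, PARS2 in DAC+OSI against OSI, and raised the cytosolic count in DAC against Control from 2 to 4. It ended no other ligase call and added 9, of which VARS1 and MARS1 make up that rise. The block in a fit of only Control and DAC+OSI called 16 cytosolic and 4 mitochondrial ligases, with 3225 of 19536 genes higher and 3449 lower.

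Counts of called ligases moved by over 1.5 times as follows, and the cause was not tested. Calls over all genes moved with the setting too. Those of the 10-library fit and of DESeq2 stand with each comparison above, and the others are given here. For OSI against Control the mitochondrial count was 3 by DESeq2, 6 in the 10-library fit and 2 with the GC correction, with or without the block. The GC correction called 3202 of 20820 genes higher and 2662 lower, and 3373 and 2850 with the block. For DAC against Control the cytosolic count was 4 without the filter and by DESeq2, 6 with only the groups compared, 11 in the 10-library fit, 6 with the GC correction and 8 with the GC correction and block, and the mitochondrial count 5 in the 10-library fit and 1 with the GC correction. Genes higher and lower were 1299 and 1198 of 39266 without the filter, and 1657 and 1584 of 19678 with only the groups compared. They were 2069 and 1674 of 20820 with the GC correction, and 2408 and 1874 with the block added. For DAC+OSI against Control only the groups compared gave 5 cytosolic and 2 mitochondrial calls, with 1582 of 19536 genes higher and 1376 lower. For DAC against OSI only the groups compared and the 10-library fit each gave 18 cytosolic and 13 mitochondrial calls. With only the groups compared, 4942 of 19583 genes were higher and 4945 lower. For DAC+OSI against OSI the cytosolic count was 1 with only the groups compared, 12 in the 10-library fit and 7 with the GC correction, with or without the block, and the mitochondrial count 3 without the filter, 2 with only the groups compared and 11 in the 10-library fit. Genes higher and lower were 938 and 862 of 19480 with only the groups compared, and 2344 and 1765 of 39266 without the filter. They were 2950 and 2591 of 20820 with the GC correction, and 3084 and 2764 with the block added. For DAC+OSI against DAC the cytosolic count was 0 with only the groups compared, 13 in the 10-library fit, 8 with the GC correction and 10 with the GC correction and block, and the mitochondrial count 1 by DESeq2, 3 in the 10-library fit, 3 with the GC correction and 4 with the block added, while the mitochondrial median was -0.05 in the 10-library fit. Genes higher and lower were 437 and 360 of 19948 with only the groups compared. They were 1835 and 1622 of 20820 with the GC correction, and 1967 and 1873 with the block added. For the interaction the cytosolic count was 5 by DESeq2, 10 in the 10-library fit and 6 with the GC correction, with or without the block, and the mitochondrial count 3 in the 10-library fit. The GC correction called 686 of 20820 genes positive and 980 negative there, and 811 and 1179 with the block.

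With 1 library left out, cytosolic counts ran from 9 to 16 for OSI against Control, 1 to 9 for DAC against Control, 10 to 16 for DAC+OSI against Control, 3 to 14 for DAC against OSI, 1 to 9 for DAC+OSI against OSI, 1 to 6 for DAC+OSI against DAC and 2 to 7 for the interaction. Mitochondrial counts ran from 1 to 4, 0 to 6, 3 to 6, 1 to 9, 3 to 8, 0 to 1 and 0 to 0 in the same order. Calls over all genes moved as well. In OSI against Control 1135 of 21565 genes were lower without OSI 2, and 3214 of 21531 without DAC+OSI 2. The mitochondrial median log2 change ran, with 1 library left out, from -0.31 to -0.2 for DAC+OSI against Control and from -0.33 to -0.06 for DAC+OSI against DAC.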
